A study of Mus musculus with 24 samples.

Results

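The interneuron genes described here, 10 in number, mark cortical inhibitory cells and were measured in bulk RNA of the mouse anterior cingulate cortex, a frontal cortical area. The 10 were picked by name from the 15232 genes of the deposited expression table: Gad1, Gad2 and Slc32a1 for the making and loading of the transmitter GABA, Pvalb and Calb2 for calcium-binding proteins, and Sst, Npy, Vip, Cck and Reln for secreted peptides and proteins. All 10 passed the filter of a mean of at least 1 FPKM (fragments per kilobase of gene, scaled to library size), as did 12572 of the 15232 genes. The rule for choosing them names genes and uses no measured value, though it was written with earlier results of these data known.

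The 24 libraries came from 24 animals in 3 arms of 8, each with 4 females and 4 males: untrained mice labelled wild type (WT), untrained mice labelled Thbs1/2 knockout (KO) and trained mice labelled Thbs1/2 KO. The 2 targeted genes encode thrombospondins, which cells secrete into the matrix. Trained mice were food deprived and ran an operant task in a Skinner box, and RNA was taken soon after behaviour, so deprivation and training cannot be told apart. Age, strain and how the knockout was made are not given in the sources used here, and trained WT animals were not analysed here. The targeted genes went against the labels: the lowest Thbs1 value among libraries labelled KO was 2.77 FPKM, and the highest among libraries labelled WT was 0.716 FPKM. Every direction below therefore rests on the labels. Depth, recovered from the FPKM values, was 12343773 to 20414047 reads in 23 libraries and 27233267 reads in untrained male 3 labelled KO, and 146 to 26531 reads stood behind a value of 1 of the 10 genes. The animal numbers in the labels overlap with training, since the 8 trained animals and 3 untrained ones, all of them male, had numbers over 1000.

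Cortical interneurons are the local inhibitory cells of the cortex. They make GABA from glutamate with 2 glutamate decarboxylases, GAD67 (encoded by Gad1) and GAD65 (encoded by Gad2), and load it into synaptic vesicles with the transporter encoded by Slc32a1. Parvalbumin (Pvalb) marks fast-spiking basket and chandelier cells, somatostatin (Sst) marks cells that target dendrites, and vasoactive intestinal peptide (Vip) marks cells that largely inhibit other interneurons. Calretinin (Calb2) is shared by Vip and some Sst cells, neuropeptide Y (Npy) by several subclasses, and reelin (Reln) by superficial and some Sst cells. Cholecystokinin (Cck) marks a basket cell subclass and is also transcribed in many cortical excitatory cells. GABA neurons of the neighbouring striatum and septum use Gad1, Gad2 and Slc32a1 too, so those genes are not specific to the cortex.

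The promoters of 4 of the peptide genes are shown. Sst, Npy and Cck varied together from library to library, as described below, while Vip did not pass in any pair. After removing the mean of each arm and sex, r of Vip was 0.51 with Cck, 0.47 with Npy and 0.32 with Sst. Each line holds the 120 bases before the RefSeq start on the gene's own strand (GRCm38.p6): chr16:23890845-23890964 on the minus strand for Sst, chr9:121495695-121495814 on the minus strand for Cck, chr6:49822590-49822709 on the plus strand for Npy and chr10:5639098-5639217 on the plus strand for Vip. Capitals mark the letters CGTCA on either strand, the core of the cAMP response element known from the somatostatin promoter.
Sst: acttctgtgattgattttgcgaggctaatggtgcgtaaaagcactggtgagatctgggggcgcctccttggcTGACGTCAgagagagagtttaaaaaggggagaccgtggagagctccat
Cck: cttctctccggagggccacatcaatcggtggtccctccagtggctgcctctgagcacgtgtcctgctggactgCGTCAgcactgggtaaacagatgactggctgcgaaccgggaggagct
Npy: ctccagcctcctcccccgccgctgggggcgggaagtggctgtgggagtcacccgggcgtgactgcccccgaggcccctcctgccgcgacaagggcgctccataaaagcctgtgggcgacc
Vip: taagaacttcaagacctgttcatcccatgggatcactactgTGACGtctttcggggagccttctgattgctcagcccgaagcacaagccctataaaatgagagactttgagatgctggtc
The full palindrome TGACGTCA was found in Sst alone among the 9 genes with a promoter entry, and 1.24% of 32851 mouse promoter windows of this length hold it. The core letters were found in Sst, Vip, Cck and Gad2, against 11.7% of all windows, and Npy had none. Their part in the shared variation was not tested. The letters TATAAA, searched on the gene's strand, were in the Vip window and in 4.19% of all windows. These are matches of letters, and nothing in the data measured binding there.

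In the 23 libraries without untrained male 3 labelled KO, which is described next, the order of the mean levels per gene length was Sst at 281 ± 54.6 FPKM (SD, n = 23), Cck at 192 ± 32.2, Npy at 144 ± 22.0, Gad1 at 137 ± 13.4, Pvalb at 56.2 ± 14.0, Gad2 at 36.3 ± 2.89, Vip at 34.5 ± 3.05, Slc32a1 at 19.1 ± 3.15, Reln at 9.57 ± 1.17 and Calb2 at 8.66 ± 1.18. In 3 places neighbours in that order lay within 1 SD of each other, namely Npy and Gad1, Gad2 and Vip, and Reln and Calb2. The spread over libraries was widest for Pvalb, with a coefficient of variation of 24.9% and a 2.56-fold span, followed by Sst with 19.4%. It was narrowest for Gad2, with 7.95%, and Vip, with 8.82%. Counting error alone would give 1.17% for Gad1, 3.44% for Pvalb and at most 6.98%, for Calb2, so the spread of each gene was larger than its counting error. Gad1, Gad2 and Slc32a1 all lie on chromosome 2, at 47.6, 95.5 and 40.5 Mb from Thbs1, and the other 7 genes lie on other chromosomes than Thbs1 and Thbs2. Whether position bore on their levels was not tested.

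A single library, untrained male 3 labelled KO (animal 480), stood apart from all others in most of these genes. Gad1 was at 285 FPKM in it against a median of 147 FPKM in the other 7 libraries of its arm, a ratio of 1.94. Gad2 was at 151 FPKM against a median of 38.7 FPKM, 3.90 times as high. Slc32a1 was at 76.7 FPKM against a median of 18.6 FPKM, 4.12 times as high. All GABA genes thus lay above the range of the other 23 libraries, and so did Calb2, at 32.0 FPKM against 9.93 FPKM. Among the subclass genes, 4 went the other way. Pvalb was at 10.7 FPKM against 57.6 FPKM, 0.185 times the median, and Vip was at 11.8 FPKM against 34.9 FPKM. Cck was at 58.2 FPKM against 175 FPKM and Npy at 67.1 FPKM against 142 FPKM. These 4 lay below the other 23 libraries, while Sst at 250 FPKM and Reln at 10.9 FPKM lay inside their range.

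Markers of neighbouring regions stood apart in the same library. The summed level of 12 septal markers was 138 FPKM in it and 7.79 to 11.8 FPKM in the other 23 libraries, with Zic1 at 52.0 FPKM against at most 2.70 FPKM, Chat at 8.17 against at most 0.979 FPKM and Ecel1 at 29.1 against at most 1.53 FPKM. Another septal marker, Trpc6, was lower in it, at 1.21 FPKM against 1.70 to 3.53 FPKM. Chat is also on the list of further Vip and Lamp5 cell markers used below, so it is not particular to the septum here. The sum of 14 striatal markers was 545 FPKM against 110 to 396 FPKM, and the sum of 12 cortical excitatory markers was 350 FPKM against 830 to 1071 FPKM. Of the most abundant striatal markers, Ppp1r1b and Adcy5 lay above the other 23 libraries. Scn4b, at 44.7 FPKM, lay inside their range of 21.9 to 66.9 FPKM. None of these 38 markers was at 0 in every library. The labelled tissue had its defining excitatory marker Slc17a7 (the vesicular glutamate transporter of cortical projection neurons) at 442 to 616 FPKM in the other 23 libraries and at 191 FPKM in this one. The part of these markers in the levels of the GABA genes was not tested, and each comparison below is given with and without this library.

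**Figure D1:**
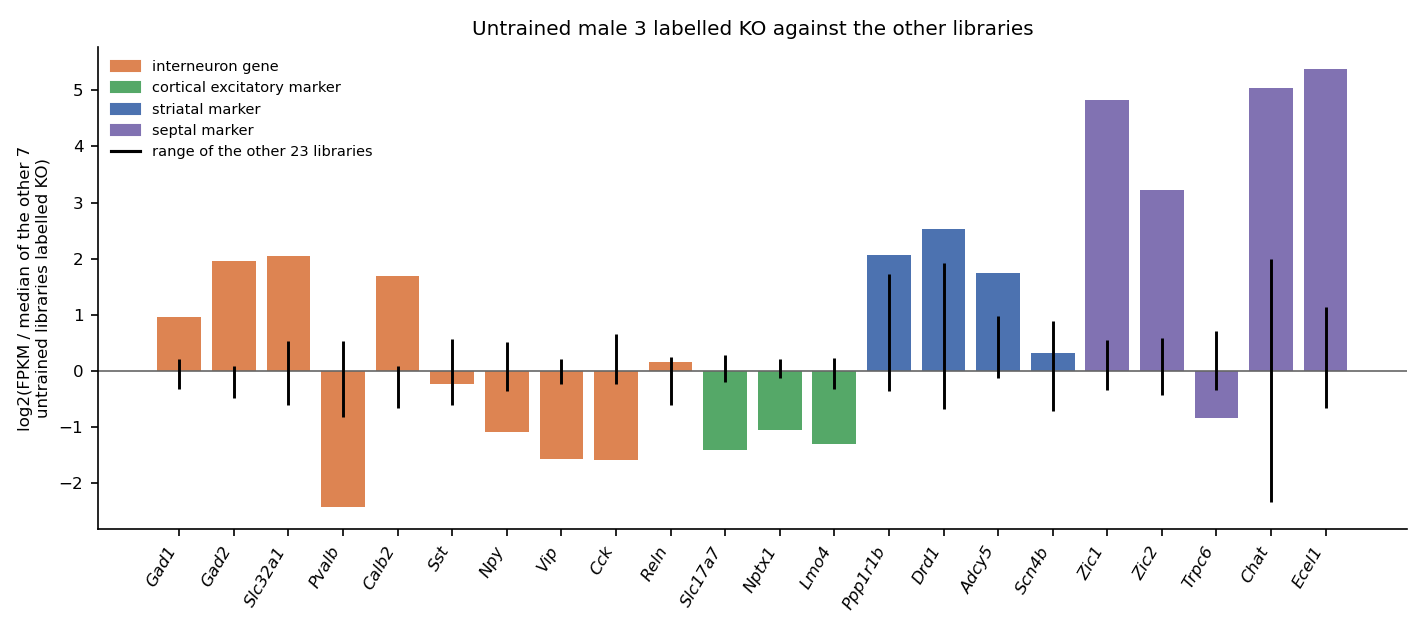
Bars give log2 of the FPKM value in untrained male 3 labelled KO over the median of the other 7 untrained libraries labelled KO, for the 10 interneuron genes and for markers of cortical excitatory neurons, striatum and septum; black lines span the other 23 libraries. Gad1, Gad2, Slc32a1 and Calb2 stand above that span and Pvalb, Npy, Vip and Cck below it, beside septal markers such as Zic1 and Ecel1 that stand above it.

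Untrained libraries labelled KO were first set against untrained libraries labelled WT. None of the 10 genes passed in limma (Benjamini-Hochberg adjusted p under 0.05 over 12572 genes), with or without male 3, beside 1.42% of all tested genes with it and 2.7% without it. At an unadjusted p under 0.05 there were 3 with it (Gad1, Calb2 and Sst), beside 1600 of the 12572 tested genes. Without it there were 5 (Pvalb and Npy in addition), beside 2174 of the tested genes. On the recovered reads limma-voom called 0 of the 10. For these genes, as throughout this bulk tissue, fewer cells of a type and less RNA per cell cannot be told apart.

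Gad1 ranged from 118 through a median of 127 to 144 FPKM in the 8 libraries labelled WT, and from 131 through 149 to 285 FPKM in the 8 untrained libraries labelled KO. All 8 libraries labelled KO lay above the median labelled WT and 5 above its highest value, but the arms overlapped. The difference on the log2(FPKM + 1) scale was 0.31 (SE 0.119, limma adjusted p = 0.259), and without male 3 it was 0.19 (SE 0.0550, limma adjusted p = 0.0691). Gad2 was at 36.7 ± 2.04 FPKM (SD, n = 8) labelled WT and, without male 3, 38.0 ± 2.90 FPKM (SD, n = 7) labelled KO, so its log2 difference of 0.29 became 0.04. Slc32a1 was at 20.3 ± 2.29 FPKM (SD, n = 8) and, without male 3, 19.7 ± 3.98 FPKM (SD, n = 7), and its difference turned from 0.18 to -0.04. The GABA genes other than Gad1 thus differed between these arms by less than the spread between libraries once that library was left out.

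Pvalb ranged from 32.4 through 46.9 to 56.8 FPKM labelled WT and from 10.7 through 54.0 to 82.9 FPKM labelled KO. The values of 4 libraries labelled KO lay above every library labelled WT, and male 3 lay below them all. Its difference was 0.06 (SE 0.309, limma adjusted p = 0.956) with male 3 and 0.36 (SE 0.154, limma adjusted p = 0.228) without it. Among animals numbered under 1000, male 3 included, it was -0.07. Calb2 ranged from 6.26 to 9.12 FPKM labelled WT and from 7.87 to 32.0 FPKM labelled KO, with 6 of 8 libraries labelled KO above all labelled WT, and its difference was 0.42 with male 3 and 0.22 (SE 0.0778, limma adjusted p = 0.147) without it.

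Sst ranged from 195 through 239 to 341 FPKM labelled WT and from 250 through 289 to 327 FPKM labelled KO. All 8 libraries labelled KO lay above the median labelled WT, but none above its highest library, untrained male 1. The difference was 0.24 (SE 0.0951, limma adjusted p = 0.286) with male 3 and 0.28 (SE 0.0897, limma adjusted p = 0.111) without it. Npy differed by -0.02 with male 3 and by 0.12 without it, Vip by -0.22 and -0.04, Cck by -0.17 and 0.05, and Reln by 0.03 both times. For Npy and Cck the sign thus depended on that library. With male 3 left out, leaving out 1 further library let Gad1 pass without untrained WT female 2 (0.22, limma adjusted p = 0.0415), WT male 1 (0.22, limma adjusted p = 0.0359) or KO female 2 (0.23, limma adjusted p = 0.0238), and let Sst pass without WT male 1 (0.34, limma adjusted p = 0.0214). In a test of the interaction of genotype label and sex, limma called 0 of the 10 genes (0 at an unadjusted p under 0.05) and 0 of all tested genes (394 at an unadjusted p under 0.05).

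**Figure D2:**
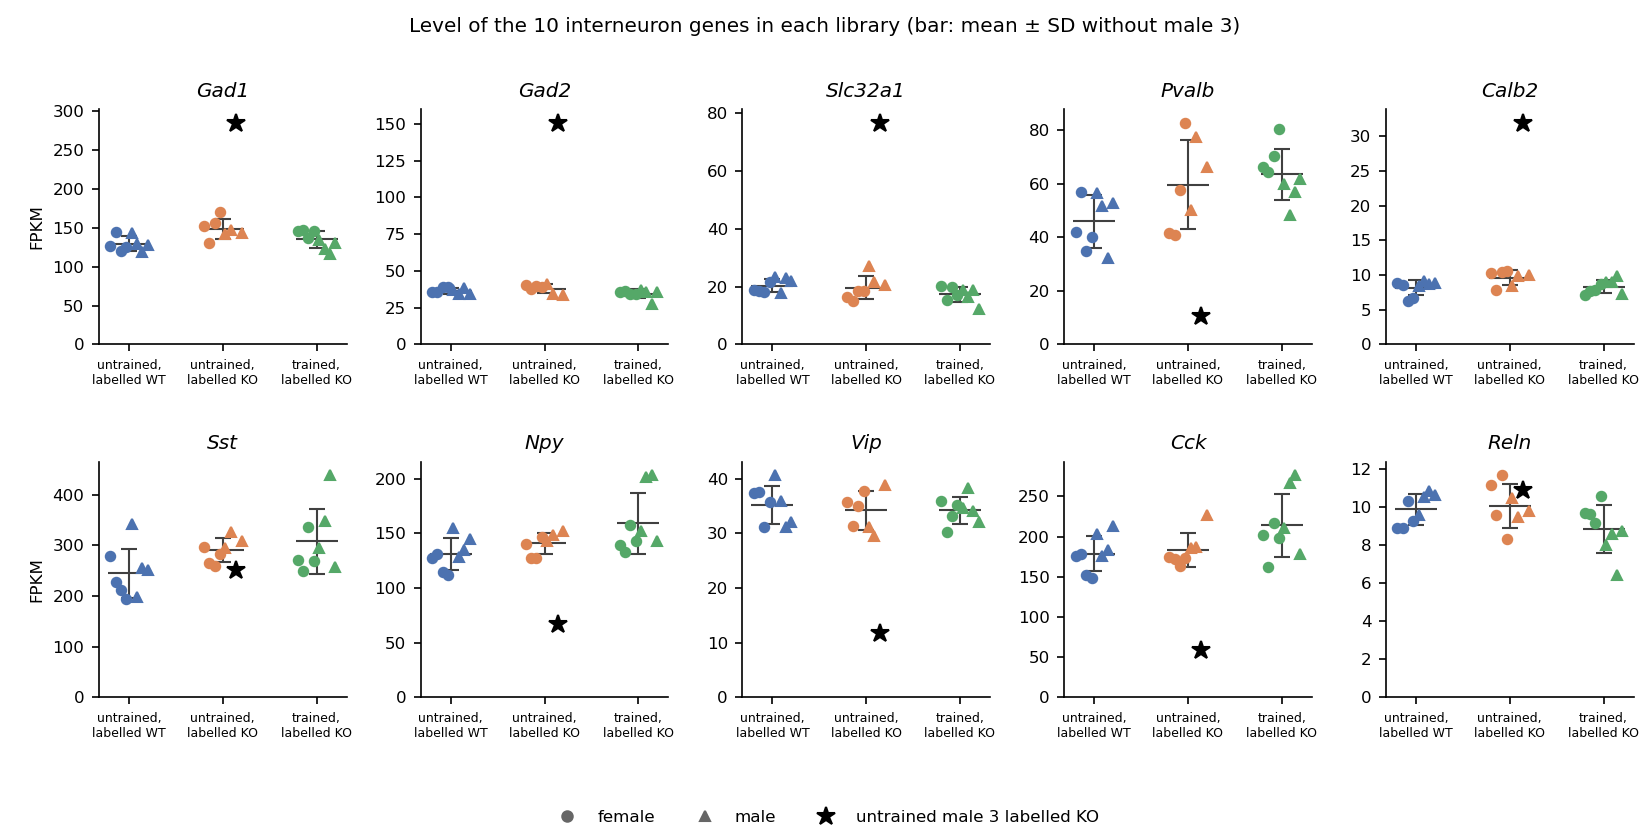
FPKM of each of the 10 genes in every library, by arm; circles are females, triangles males, the star untrained male 3 labelled KO, and bars the mean ± SD of the arm without it. The arms overlap for each gene, and the star lies outside all other points in 8 of the 10 panels.

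Of the other genes of the GABA and interneuron programmes, 1 of 76 passed in the same comparison, a share near the 1.42% of all tested genes. Among 12 tested genes of GABA uptake, breakdown and precursor supply 1 passed: Slc38a1, a glutamine carrier of GABA neurons, was higher labelled KO by 0.14 (SE 0.0326, limma adjusted p = 0.0363). This call was lost with equal library sums and with any 1 of 11 libraries left out (limma adjusted p 0.0511 to 0.0827), and it held without WT female 4, WT male 2, KO female 2, KO male 1 or KO male 3. None passed of 20 interneuron transcription factors and fate genes, 16 further Pvalb and Sst cell markers, 15 further Vip and Lamp5 cell markers and 13 receptors for the peptides and reelin. Named from these lists by the smallest p are Nr2f1, Calb1 and Cplx1, Tac2 and Hapln1, and Sstr1 and Npy5r, with limma adjusted p from 0.145 (Tac2) to 0.622 (Nr2f1). Without male 3, Satb1 (a chromatin organiser of Sst and Pvalb cells) was higher by 0.19 and Cplx1 (complexin 1, a regulator of vesicle release) by 0.37, with limma adjusted p of 0.0425 and 0.0338. With Slc38a1 these made 3 of 76 (3.95%), beside 2.7% of all tested genes. Cplx1 passed in only 7 of the 31 fits that left out 1 library, or male 3 and 1 more. Medians of the 5 lists lay between -0.07 and 0.05 with male 3, beside -0.0014 over all tested genes. Without male 3, all 13 tested striatal markers were lower labelled KO, none of them passing, with a median of -0.50, and their score spanned 2.14 to 4.00 labelled WT and 2.11 to 3.89 labelled KO. Their part in the differences of the interneuron genes was not tested.

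Training was examined between trained and untrained libraries labelled KO. None of the 10 genes passed in limma, with or without male 3, where 5.67% and 6.78% of all tested genes passed. At an unadjusted p under 0.05 there was 1 with it (Reln), beside 2989 of the 12572 tested genes. Without it there were 5 (Gad1, Gad2, Calb2, Cck and Reln), beside 3211 of the tested genes. On the recovered reads limma-voom called 0 of the 10. Because the untrained arm labelled KO is shared, these differences and those above are not independent.

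Gad1 was at 135 ± 11.5 FPKM (SD, n = 8) in trained libraries and, without male 3, at 149 ± 12.6 FPKM (SD, n = 7) in untrained ones, and 3 trained libraries lay below all untrained ones. Its log2 difference was -0.26 (SE 0.123, limma adjusted p = 0.216) with male 3 and -0.13 (SE 0.0523, limma adjusted p = 0.137) without it. Gad2 ranged from 27.7 through 35.5 to 37.0 FPKM in trained libraries and from 33.5 through 39.2 to 151 FPKM in untrained ones. No trained library exceeded the untrained median, and the difference was -0.38 with male 3 and -0.13 (SE 0.0579, limma adjusted p = 0.182) without it. Slc32a1 ranged from 12.2 through 18.0 to 20.1 FPKM in trained libraries, and its difference was -0.41 and -0.17.

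Pvalb ranged from 48.5 through 63.0 to 80.5 FPKM in trained libraries, all within the range of the untrained ones, and its difference was 0.42 (SE 0.288, limma adjusted p = 0.398) with male 3 and 0.13 without it. Calb2 ranged from 7.18 through 8.27 to 9.88 FPKM, with all 8 trained libraries below the untrained median and 4 below every untrained library. Its difference was -0.39 with male 3 and -0.19 (SE 0.0735, limma adjusted p = 0.115) without it. Npy ranged from 133 through 148 to 203 FPKM and Cck from 163 through 206 to 276 FPKM in trained libraries. Trained males 2 and 3 were the highest of all 24 libraries in both. The differences were 0.29 and 0.15 for Npy, 0.41 and 0.19 for Cck, 0.09 and 0.05 for Sst, 0.18 and 0.0032 for Vip, and -0.19 and -0.16 for Reln, with and without male 3. Leaving out that single library therefore moved the difference of each gene except Reln by over 1.5 times towards 0. When an animal number over 1000 entered the fit with male 3 included, the differences were 0.03 for Gad2, -0.27 for Pvalb and 0.08 for Calb2. These were of opposite sign to those without the number. Of the untrained libraries labelled KO only males 1 and 2 had such a number. Male 3 is among the few males they are set against. In a fit with the number and without male 3, chosen after seeing the data, the Pvalb difference stayed negative, as given below. For Gad2 and Calb2 that fit is not given here. Among females every trained and no untrained animal had a number over 1000, so number and training cannot be told apart there. In a test of the interaction of training and sex, limma called 0 of the 10 genes (1, Slc32a1, at an unadjusted p under 0.05). Of all tested genes it called 1 (1952 at an unadjusted p under 0.05) and, without male 3, 194.

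**Figure D3:**
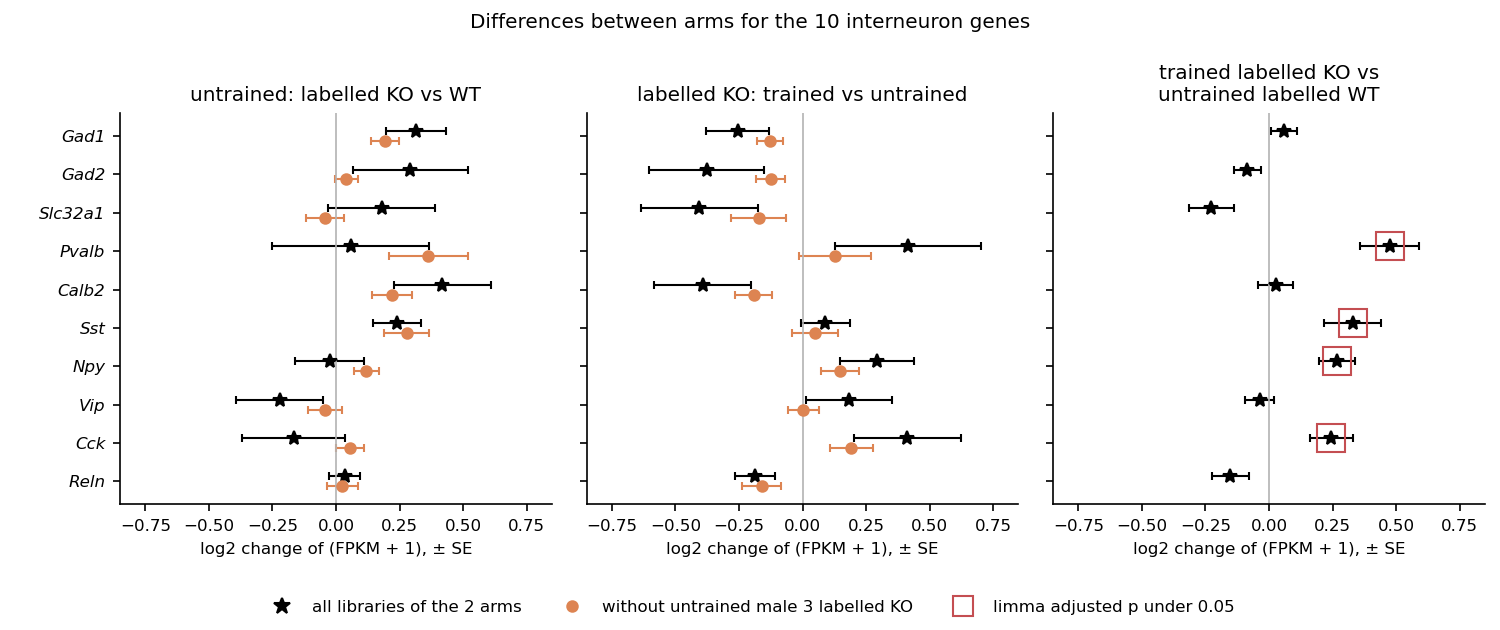
Log2 difference of FPKM + 1, with its SE, for the 10 genes in 3 comparisons of arms; stars include every library, circles leave out untrained male 3 labelled KO, and squares mark a limma adjusted p under 0.05. Squares appear in the right panel only, on Pvalb, Sst, Npy and Cck, and the SEs of Gad2 and Slc32a1 shrink when male 3 is left out.

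Related genes passed for training in 4 cases with all 16 libraries, of which 3 are described. Slc6a6, a taurine transporter, fell by 0.22 (SE 0.0484, limma adjusted p = 0.0152). Slc38a2, an amino acid carrier, rose by 0.39 (limma adjusted p = 0.0256), and the transcription factor gene Npas3 fell by 0.33 (limma adjusted p = 0.00338). The 4, of 76 tested in the lists and thus near the 5.67% of all tested genes, were 3 of 12 genes of GABA handling and 1 of 20 transcription factor and fate genes, and none passed of the 16 further Pvalb and Sst markers (nearest Grin3a and Crhbp), the 15 further Vip and Lamp5 markers (nearest Ndnf and Kit) or the 13 receptors (nearest Adcyap1r1 and Vldlr). All 4 also passed without male 3, as did the receptor gene Adcyap1r1, which fell by 0.19 (limma adjusted p = 0.0163). None of the 4 passed when the animal number entered the fit. The Slc38a2 call was lost without KO female 1, trained female 1 or trained male 1 (limma adjusted p 0.0509 to 0.0606).

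Trained libraries labelled KO were also set against untrained libraries labelled WT, a pair that differs in both labels and shares each arm with a comparison above. In the trained arm 4 of the 10 genes rose, where 24.5% of all tested genes passed in either direction. Whether 4 of 10 differs from that share was not tested. Pvalb, Sst, Npy and Cck were the 4.

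Pvalb ranged from 32.4 through 46.9 to 56.8 FPKM labelled WT and from 48.5 through 63.0 to 80.5 FPKM in the trained arm. Of the 8 trained libraries 7 lay above every library labelled WT, the exception being trained male 2. Pvalb was higher by 0.47 (SE 0.117, limma adjusted p = 0.00777). Npy ranged from 112 through 130 to 155 FPKM labelled WT and from 133 through 148 to 203 FPKM trained. All 8 trained libraries lay above the median labelled WT and 3 above its highest value, and Npy rose by 0.27 (SE 0.0710, limma adjusted p = 0.0108).

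Sst ranged from 249 through 284 to 439 FPKM in the trained arm, all 8 above the median labelled WT of 239 FPKM and 2 above its highest library. It rose by 0.33 (SE 0.113, limma adjusted p = 0.0398). Cck was at 179 ± 22.2 FPKM (SD, n = 8) labelled WT and at 214 ± 39.6 FPKM (SD, n = 8) trained, with 7 of 8 trained libraries above the median labelled WT, and rose by 0.25 (SE 0.0831, limma adjusted p = 0.0379). The Sst and Cck calls were narrow. Both were lost without WT female 3, WT female 4, WT male 2, WT male 3, trained female 1, trained female 3, trained female 4, trained male 2 or trained male 3, and Sst also without WT female 2 or WT male 4, with limma adjusted p from 0.0524 to 0.0805 for Sst and from 0.0616 to 0.0751 for Cck. When the animal number entered the fit, the differences were 0.08 for Pvalb, 0.13 for Npy, 0.17 for Cck and -0.10 for Sst. That fit sets the trained libraries against a single library labelled WT, untrained WT male 1. Its calls are therefore not read.

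The other 6 genes did not pass. Slc32a1 ranged from 17.8 through 20.1 to 23.2 FPKM labelled WT, no trained library exceeded that median, and its difference of -0.23 (SE 0.0873, limma adjusted p = 0.0656) passed with equal library sums (-0.27, limma adjusted p = 0.0192), without WT male 2 (-0.25, limma adjusted p = 0.0478) and without trained female 1 (-0.26, limma adjusted p = 0.0462). Reln differed by -0.15 (limma adjusted p = 0.140), with 4 trained libraries below all those labelled WT. Gad1 differed by 0.06, Gad2 by -0.08, Vip by -0.04 and Calb2 by 0.03. Beside these, the striatal marker score spanned 2.14 to 4.00 labelled WT and 2.08 to 3.45 in the trained arm, all 13 tested striatal markers were lower in the trained arm with a median of -0.29, and none of them passed. Of 10 early response genes such as Fos 9 rose, and of the cell type markers 2 of 12 for cortical excitatory cells rose, 3 of 10 for all neurons rose and 1 fell, 2 of 10 for astrocytes rose and 2 fell, 1 of 12 for oligodendrocytes rose and 3 fell, 1 of 10 for microglia rose and 4 fell, and 2 of 12 for vessels rose and 1 fell. The part of these genes in the changes was not tested.

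Related genes in this last pair of arms passed in 17 of 76 cases, near the 24.5% of all tested genes. Among them, 2 of 12 GABA handling genes rose (Slc38a2 by 0.56, Slc6a13 by 0.42) and 2 fell, among them Slc6a6 by 0.24. Of 20 transcription factor and fate genes 3 fell: Npas3 by 0.28, Id2 by 0.15 and Erbb4, the neuregulin receptor of interneurons, by 0.53. Of the 16 further Pvalb and Sst markers, Cplx1 rose by 0.31, whereas the fast potassium channel genes Kcnc1 and Kcnc2 fell by 0.16 and 0.18. Of 15 further Vip and Lamp5 markers 4 rose, by 0.38 for Sncg, 0.26 for Cxcl14, 0.27 for Tac2 and 0.25 for Lamp5. Of 13 receptor genes 3 fell: the somatostatin receptor Sstr1 by 0.32, the reelin receptor Vldlr by 0.18 and Adcyap1r1 by 0.15. List medians were between -0.09 and 0.04, beside 0.0032 over all tested genes. Leaving out 1 library ended the call of Lamp5 in 9 of 16 fits, Slc6a13 in 8, Kcnc1 in 7 and Adcyap1r1 in 2 (without WT male 3 or trained female 1).

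Sex was compared over all arms with the arm as a covariate. None of the 10 genes passed with all 24 libraries, where 28.6% of all tested genes did, and 0 passed by limma-voom on the recovered reads. At an unadjusted p under 0.05 there were 0 of the 10, beside 5063 of the 12572 tested genes. Without male 3, 2 of the 10 passed, where 33% of all tested genes did. Npy was then at 133 ± 13.1 FPKM (SD, n = 12) in females and at 155 ± 24.6 FPKM (SD, n = 11) in males, higher in males by 0.21 (SE 0.0550, limma adjusted p = 0.00650). Cck was at 176 ± 20.2 FPKM (SD, n = 12) in females and at 210 ± 34.5 FPKM (SD, n = 11) in males, higher by 0.24 (SE 0.0637, limma adjusted p = 0.00712). With male 3 included these differences were 0.11 and 0.09 and did not pass. The sexes overlapped in both genes, and the highest males were trained males 2 and 3. Sst was higher in males by 0.19 without male 3 (limma adjusted p = 0.0745). Of the related lists with all 24 libraries, beside 28.6% of all tested genes, 2 of 12 GABA handling genes were lower in males, 1 of 20 transcription factor and fate genes was higher and 2 lower, 0 of 16 Pvalb and Sst markers passed, 2 of 15 Vip and Lamp5 markers were higher and 3 lower, and 1 of 13 receptor genes was higher and 1 lower. All 3 untrained animals with a number over 1000 were male, and the part of the number in these differences was not tested.

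The 10 genes were next compared with each other across libraries. With all 24 libraries 24 of 45 pairs passed (Pearson's r of log2(FPKM + 1), permutation test with 100000 resamples, 2-sided, Benjamini-Hochberg adjusted over 45 pairs), and without male 3 only 8 did, of which 5 passed by Spearman's rho too. Since male 3 lies apart from the rest, values over the 23 other libraries are given. Arm and sex were not held in these tests. After removing the mean of each arm and sex, r was 0.88 for Npy and Cck, 0.84 for Sst and Npy and 0.74 for Sst and Cck. It was -0.60 for Gad2 and Cck and 0.78 for Gad1 and Pvalb.

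Sst, Npy and Cck formed 1 group. Npy and Cck had r = 0.93 and rho = 0.86, Sst and Npy r = 0.87 and rho = 0.82, and Sst and Cck r = 0.78 and rho = 0.69 (permutation test, adjusted p of r = 0.00015 for each, raw p = 1e-05, the smallest that 100000 resamples can give). Within the arms r was 0.96, 0.72 and 0.95 for Npy and Cck in the arm labelled WT, the untrained arm labelled KO and the trained arm. Without the 2 libraries farthest from the median of the first gene of each pair it was 0.85, 0.77 and 0.64. Libraries with high Sst, such as trained males 2 and 3 and WT male 1, were thus high in Npy too, and trained males 2 and 3 also in Cck. The FPKM sums of trained males 2 and 3 and WT male 1 over all genes, at 344915, 349560 and 341082, were also among the highest of the 24 libraries. The relations were computed without scaling to equal sums, and the part of the sum in them was not tested. Npy and Cck, unlike Sst, lay below all others in male 3.

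Cck was lower where Gad2 was higher (r = -0.71, rho = -0.68, permutation test, adjusted p of r = 0.0026), and within the 3 arms r was -0.65, -0.72 and -0.65. Gad1 and Pvalb varied together (r = 0.65, rho = 0.62, permutation test, adjusted p of r = 0.0077), with r of 0.89, 0.60 and 0.76 within the arms, although in male 3 Gad1 was the highest and Pvalb the lowest of all 24 libraries. The 3 other pairs, Gad2 with Npy, Gad2 with Reln and Npy with Reln, passed by r but not by rho, and were -0.42, 0.20 and -0.23 without the 2 farthest libraries, so they rested on those. Gad1 and Gad2 did not pass as a pair in the 23 libraries, nor did Vip in any of its 9 pairs.

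**Figure D4:**
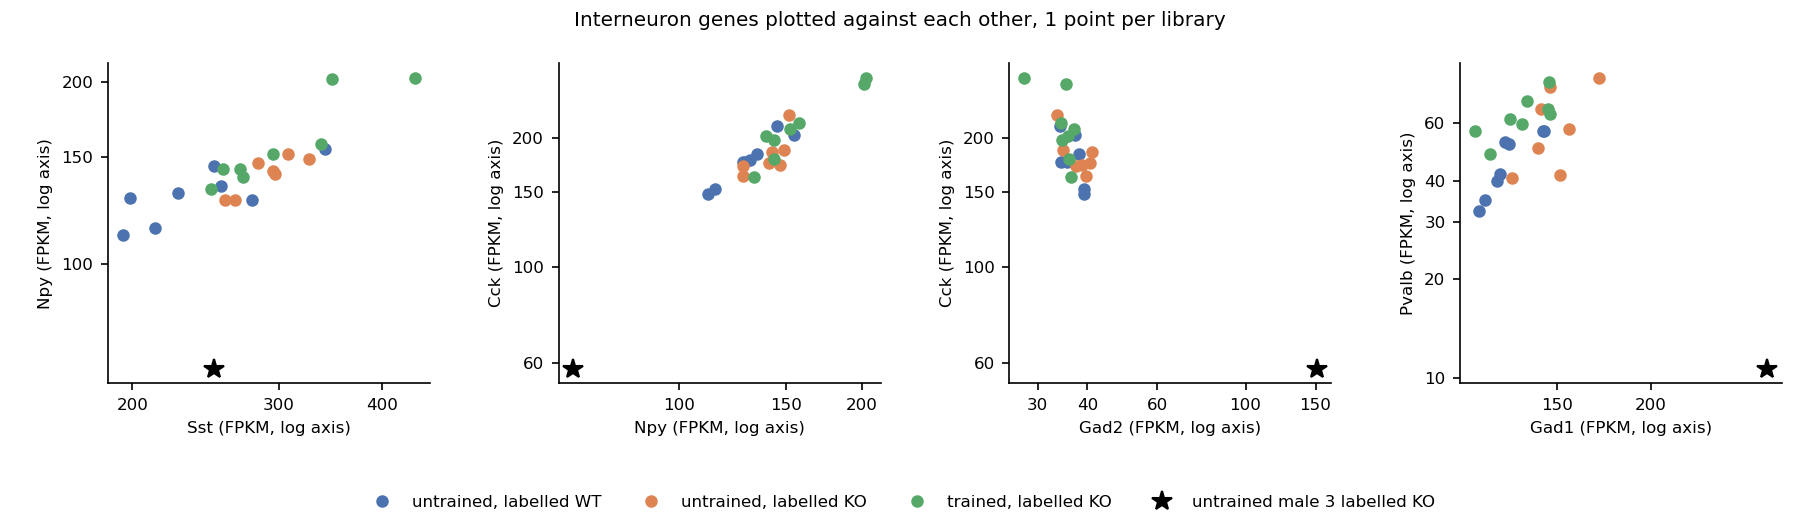
Each panel plots 2 of the genes against each other in FPKM on log axes, 1 point per library coloured by arm, with untrained male 3 labelled KO as a star. Npy follows Sst and Cck follows Npy in all arms, Cck is lower where Gad2 is higher, Pvalb follows Gad1, and the star lies away from the other points.

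The levels were also set against 3 regional marker scores, each the mean log2(FPKM + 1) of its list. With all 24 libraries 18 of 30 relations passed by Pearson's r but 2 by Spearman's rho, and without male 3 only 1 passed by both, that of Cck with the cortical excitatory score (r = 0.68, rho = 0.64, permutation test, adjusted p 0.0135 and 0.0202). It was 0.75, 0.27 and 0.97 within the arms and 0.70 without the 2 farthest libraries. For Gad1 over the 23 libraries, rho was -0.64 with the striatal score (permutation test, adjusted p = 0.0202) and -0.58 with the cortical excitatory score (permutation test, adjusted p = 0.0446), while r did not pass for either. Relations of Gad2 and Slc32a1 to the septal score, at r = 0.97 and 0.88 over 24 libraries, were 0.35 and 0.15 without male 3 and rested on that library.

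Genes whose pattern was most like each of the 10 were taken over the 23 libraries after removing the mean of each arm and sex, and the r given is a description of points that share library and depth. For Pvalb they were Kcnab3 (r = 0.94), Kcng4 (0.93) and Cplx1 (0.92), and for Gad1 Kcnab3 (0.89), Npnt (0.84) and Ina (0.83), so Pvalb and Gad1 shared their nearest gene. For Slc32a1 they were Dlx5 (0.85), which encodes an interneuron transcription factor, Rap1gap (0.84) and Ruvbl2 (0.84), and for Gad2 Pcm1 (0.92), Zfp292 (0.88) and Pcdhgb7 (0.87). For the peptide genes they were Epn1 (0.95), Arf5 (0.89) and Med25 (0.87) for Sst, Mlf2 (0.90), Sqstm1 (0.90) and Rnf187 (0.89) for Npy, 2210016L21Rik (0.93), Stmn3 (0.92) and Ppapdc3 (0.92) for Cck, and Pkm (0.87), Aars (0.86) and Gabarapl1 (0.86) for Vip. Calb2 had Larp6 (0.86), Nfu1 (0.82) and Blvra (0.81), and Reln had Atrn (0.87), Nrxn3 (0.87) and Scn2a1 (0.86).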

How the data were processed

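Poly(A) RNA of the whole anterior cingulate cortex was sequenced from 24 mice (1 library each), and the labels' protocols name a stranded kit for mRNA. The authors deposited FPKM values for 15232 genes. FastQC 0.11.7, Trimmomatic 0.38, STAR 2.5.3a, featureCounts of Subread 1.6.3 and the build mm10 are named in the submitters' processing notes, and the annotation and gene filter are not given in the sources used here. Whole reads were recovered from the FPKM steps (within 0.01 read for 15210 genes and 0.15 for 22 genes given with fewer digits), so 100% of genes came out whole. Recovered depth covers counting error only.

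Fits used limma 3.58.1 (R 4.3.3, eBayes with trend) on log2(FPKM + 1) over the 12572 genes with a mean of at least 1 FPKM, using the arms compared, with sex as a covariate (arm for the sex comparison), Benjamini-Hochberg adjustment and a threshold of 0.05. Fold changes on this scale are understated for low genes. The fit and the read recovery were tested on simulated data. Relations used log2(FPKM + 1) without scaling to equal library sums and were computed in Python 3.11.15 with scipy 1.17.1, pandas 2.3.3 and numpy 2.4.6. Promoter sequences and positions are from RefSeq (GRCm38.p6), which held 9 of the 10 genes' promoters.

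The 10 genes and the other lists were chosen with earlier results of these data known. All 10 genes are named. Of the 5 related lists, genes that passed are named (at most 4 per list and comparison), or the 2 nearest; the sex comparison gives counts, and nearest genes are not named for fits without male 3. Markers of cortical excitatory cells, striatum and septum are described by their summed level or score with some of their most abundant members, and Drd1, Chat and Ecel1 were picked after their values were seen. Marker lists of other cell types are given as counts. Some list genes are not reported here by name and stay in the counts. P-values of the fits measure the spread between animals. Those of the relations come from permuting libraries with no term for arm or sex, so shifts shared by an arm or sex enter them. Alternatives were a pseudocount of 0.1, no filter, median-ratio scaling, equal library sums, limma-voom on the recovered reads, a replicate block, the animal number as a covariate and each library left out.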

Additional observations from a re-analysis of the deposited data

Results flagged for a closer look

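In 39 groups of 8 libraries (the 10 genes and 3 regional marker scores in each arm), the highest or lowest value was compared with the gap to its nearest neighbour, a test that by chance picks about 1 in 20 groups. It picked 10 values, 9 of them from untrained male 3 labelled KO. That library was already known to stand apart, and its 9 values come from 1 animal and from genes that vary together, so they are a description and their number is not set against chance. In that library Gad1 was at 285 FPKM (the other 7 of its arm at 131 to 171), Gad2 at 151 FPKM (33.5 to 41.0), Slc32a1 at 76.7 FPKM (15.0 to 27.1) and Calb2 at 32.0 FPKM (7.87 to 10.6). Npy was at 67.1 FPKM (127 to 152), Vip at 11.8 FPKM (29.6 to 38.8) and Cck at 58.2 FPKM (163 to 226). The septal marker score, a mean log2(FPKM + 1), was 2.88 (0.60 to 0.72) and the cortical excitatory score 3.58 (4.63 to 4.89). The tenth value was Gad2 in trained male 3, the lowest of its arm at 27.7 FPKM (34.2 to 37.0). Pvalb in untrained male 3 labelled KO, at 10.7 FPKM, lay below all others but was not picked, since Pvalb spread from 40.9 to 82.9 FPKM in the rest of that arm.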

How the results depend on the processing

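The counts of interneuron genes that passed by genotype label (0), by training (0), by sex (0) and in both interactions (0) were the same under a pseudocount of 0.1, no filter, both scalings, limma-voom on recovered reads and the replicate block. The count of 4 in trained labelled KO against untrained labelled WT was 1 with the replicate block and 2 to 4 with 1 library left out. Without untrained male 3 labelled KO, the sex count became 2, the relations to the regional scores went from 18 to 1 and those between the genes from 24 to 8. With that library and 1 further library left out, chosen after seeing the data, the genotype count was 0 to 2. Differences that changed sign when the fit held the animal number were, for training with male 3 included, Gad2 (0.029), Pvalb (-0.27) and Calb2 (0.083). For trained labelled KO against untrained labelled WT they were Gad1 (-0.16), Sst (-0.099), Cplx1 (-0.030) and Lamp5 (-0.21). That last fit sets the trained libraries against untrained WT male 1, the single library labelled WT with a number over 1000. Calb2 in the latter pair was -0.012 with equal library sums and -0.018 with the replicate block, and Gad1 by sex was 0.011 with the block. In fits chosen after seeing the data, Pvalb by training was -0.057 with the number as a covariate and no male 3, and Pvalb by genotype label was -0.067 in animals numbered under 1000.

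With 1 library left out, or male 3 and 1 more, differences by genotype label ranged from -0.25 to 0.075 for Cck, -0.060 to 0.14 for Npy, -0.060 to 0.43 for Pvalb, -0.013 to 0.069 for Reln and -0.10 to 0.24 for Slc32a1. By sex they ranged from -0.087 to 0.016 for Gad1, from -0.071 to 0.14 for Gad2 and from -0.26 to 0.018 for Pvalb, and Calb2 in the last pair of arms ranged from -0.012 to 0.065. Same-numbered animals are different animals, and their deviations correlated by 0.02, -0.07 and -0.10 on average in the 3 comparisons of arms, so the numbers were not treated as pairs. The block, which leaves out trained female 4 and its partner, ended the 4 related calls by training, that of Slc38a1 by genotype label and, in trained labelled KO against untrained labelled WT, those of Sst, Cck, Npy, Slc6a13, Npas3, Cplx1, Kcnc1, Lamp5, Vldlr and Adcyap1r1. Calls of the fit that held the animal number in that pair are not read, since it rests on a single library labelled WT. The cause of these shifts was not tested. Genes with few reads, such as Calb2, are limited by counting, and 8 animals an arm by the spread between them.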
